A study of Homo sapiens with 4 samples.

Results

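Binding of the La-related protein LARP4 was followed on 4 short mRNAs that form a pair of paralog pairs: DDT and MIF, and MZT2B and MZT2A. LARP4 binds poly(A) and the cytoplasmic poly(A)-binding protein and is known for protecting the 3′ ends of mRNAs. MIF, macrophage migration inhibitory factor, is a secreted cytokine with tautomerase activity, and DDT, D-dopachrome tautomerase, is its paralog and shares the receptor CD74. MZT2A and MZT2B encode near-identical forms of mitotic-spindle organizing protein 2, a small partner of the gamma-tubulin ring complex, from which microtubules are nucleated.

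The study used enhanced crosslinking and immunoprecipitation (eCLIP), in which proteins are fixed to the RNA in contact with them by ultraviolet light and then pulled down with an antibody, RNA attached. The samples were 2 LARP4 eCLIP replicates, set by the authors against 2 size-matched inputs, which are RNA of the same gel range without antibody. All came from HEK293, a single human embryonic kidney line transformed with adenovirus DNA, crosslinked at 254 nm with 400 mJ/cm2. Each replicate had a list of clusters, meaning stranded intervals with the authors' log2 fold over input and −log10 p of enrichment, and 1 further list covered the whole series. Depth is unknown, since read numbers are not part of the lists, and the identity of the line could not be checked against expression markers.

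The 4 genes were chosen by the log2 folds of these same lists, so every fold below is a description without a test. Their intervals were those overlapping a hg19 window on the strand of the gene. The windows were chromosome 22, 24313500 to 24322100 (minus strand) for DDT, chromosome 22, 24236500 to 24237500 (plus strand) for MIF, chromosome 2, 130939300 to 130948400 (plus strand) for MZT2B and chromosome 2, 132222400 to 132250400 (minus strand) for MZT2A. They held 60 of 171755 clusters in replicate 1, 58 of 191899 in replicate 2 and 54 of 7153 series-wide regions. Positions are counted from 1 and, except for the sequences printed next, are hg19. No hg19 gene model was used here, so clusters are not assigned to exons, introns or untranslated regions.

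The MZT2 genes lie in duplicated stretches of chromosome 2, which bears on how reads can be assigned to either copy. In RefSeq (GRCh38.p14), MZT2B overlaps SMPD4 and TUBA3E, and MZT2A overlaps their relatives SMPD4BP and TUBA3D. The 250 bases upstream of the MZT2 start sites in the RefSeq promoter table were identical at 231 positions (92.4%), and the 50 bases downstream at 47 (94.0%). Reads of a transcript that begins at the listed start come from the downstream side. Whether clusters also reach upstream of that start was not examined, as no coordinates were converted between builds. The bound blocks were not compared in sequence. The 100 bases before each start are shown to make the upstream likeness visible, 5′ to 3′ on the strand of the gene, with the 6 positions that differ in capitals. They lie in GRCh38.p14 at chr2:130182162-130182261 (plus strand) for MZT2B and chr2:131492398-131492497 (minus strand) for MZT2A.
MZT2B: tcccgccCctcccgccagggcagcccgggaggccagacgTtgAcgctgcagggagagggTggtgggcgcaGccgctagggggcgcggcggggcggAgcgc
MZT2A: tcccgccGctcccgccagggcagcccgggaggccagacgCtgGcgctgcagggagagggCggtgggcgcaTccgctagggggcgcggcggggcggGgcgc
DDT has a copy as well: DDTL, a D-dopachrome tautomerase-like gene, overlaps it in RefSeq. How reads that match both copies were treated is not given here by any label or header.

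Nearly all clusters of these mRNAs were far above input in both cultures. Enriched clusters, which reached 3 both on the log2 scale of fold (8-fold) and in −log10 p, made up 56 of 60 clusters in replicate 1 and 55 of 58 in replicate 2. In the whole lists they made up 5.01% and 5.50%. Since the genes were picked for their folds, these shares are printed beside each other without being compared. Every cluster of DDT, MIF and MZT2B was enriched in both replicates. MZT2A was the exception, with 13 of 17 enriched clusters in replicate 1 and 11 of 14 in replicate 2. The median log2 fold over clusters of all 4 genes was 4.51 in replicate 1 and 5.23 in replicate 2, and that of the whole lists was 1.28 and 1.30.

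**Figure D1:**
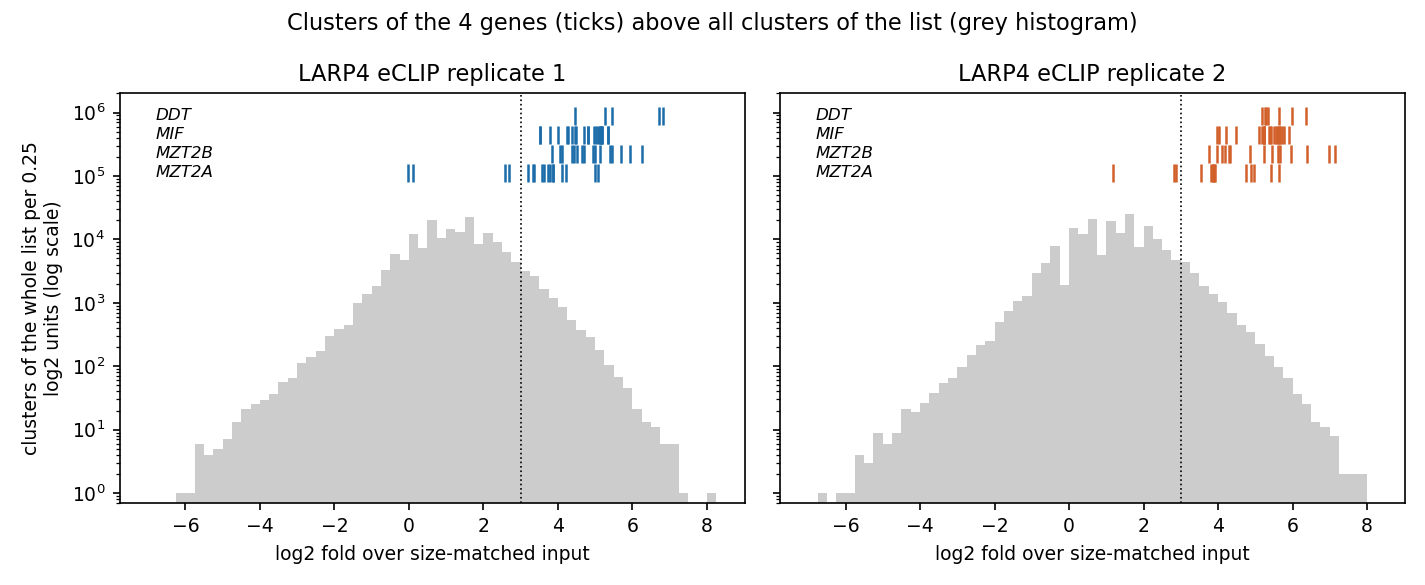
Log2 fold over size-matched input (x axis) of every cluster of the 4 genes, drawn as ticks in a row per gene at a height with no meaning, above a histogram of all clusters of the list (y axis, clusters per 0.25 log2 units, log scale); the dotted line marks a log2 fold of 3. Ticks of DDT, MIF and MZT2B all lie right of the line in both replicates, while MZT2A has 4 ticks left of it in replicate 1 and 3 in replicate 2.

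Averaged over covered bases, DDT was the most enriched of the 4. Weighted by width, its mean log2 fold came to 5.49 and 5.54 in replicates 1 and 2 (5.51 ± 0.03, SD, n = 2), which is 45.7-fold over input. MZT2B had 4.75 and 5.02 (4.89 ± 0.19), or 29.6-fold. MIF and MZT2B could not be told apart by this measure, as MIF had 4.51 and 5.04 (4.78 ± 0.38), or 27.4-fold. MZT2A was lowest, with 3.21 and 3.95 (3.58 ± 0.52), or 12-fold. Its mean includes clusters that were not enriched, of which the other genes had none. With only clusters of a −log10 p of at least 3 it was 4.11, still the lowest of the 4. The order was DDT, MZT2B, MIF and MZT2A in replicate 1, but in replicate 2 MIF and MZT2B changed places. The values rest on few bases. DDT clusters covered 260 bases in replicate 1 and 257 in replicate 2, MIF clusters 456 and 449, MZT2B clusters 460 and 467, and MZT2A clusters 649 and 597.

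Single clusters of DDT and MZT2B ranked among the highest of the whole lists. The highest DDT cluster had a log2 fold of 6.81 in replicate 1 and 6.35 in replicate 2, and 14 and 51 clusters of the lists, itself included, reached as high. The highest MZT2B cluster had 6.27 and 7.13, a level reached by 38 and 9 clusters. The peak of the other member was lower in each pair. MIF reached 5.34 and 5.89, matched or passed by 230 and 130 clusters, and MZT2A reached 5.08 and 5.62, matched or passed by 393 and 208. In each pair the member with the higher peak was the same in both replicates.

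DDT, which converts D-dopachrome and acts as a MIF-like cytokine, was bound in 2 short stretches. Clusters of both replicates were joined into blocks wherever less than 50 bases separated them, and both DDT blocks had clusters in each replicate. The block nearer the 5′ end, 24315957 to 24315993, was a lone cluster of 37 bases in replicate 1 and of 32 bases in replicate 2, with log2 folds of 6.71 and 6.35 (6.53 ± 0.26). A gap of 2144 bases separated it from the block nearer the 3′ end, 24313588 to 24313812. That wider block averaged 5.29 in replicate 1 and 5.42 in replicate 2 (5.36 ± 0.09), so the short upstream stretch was higher in both replicates, by 1.42 and 0.93 log2 units. The upstream cluster nevertheless had the lowest −log10 p of the DDT clusters in each replicate, 29.2 and 22.9. No cluster lay in the rest of the window toward its 5′ end.

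Within the 3′ block of DDT the fold was lower at each step from the 5′ to the 3′ edge in replicate 1 but not in replicate 2. The replicate 1 cluster at 24313801 to 24313812 had 6.81, the one at 24313748 to 24313800 had 5.46, that at 24313619 to 24313747 had 5.26 and the last, at 24313590 to 24313618, had 4.46. Replicate 2 cut the same stretch into 6 clusters that ran between 5.19 and 5.99. Its 5′ edge cluster had 5.62, below the 5.99 of the next one, and its last cluster, at the 3′ edge, had 5.28. In the authors' series-wide list the 5 DDT regions ran from 6.53 at 24315957 to 24315988, the highest, down to 4.76 at 24313590 to 24313618, the lowest. The −log10 p was at its upper limit of 400 in 1 DDT cluster of replicate 1 and 2 of replicate 2, all in the 3′ block, and between 22.9 and 52.0 in the others.

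MIF was covered by 22 clusters in each replicate, and its fold was higher toward the 3′ end. All 22 had a −log10 p at the limit of 400 in both replicates, so p does not rank them. In the whole lists 503 and 525 clusters reached that limit. The clusters formed 3 blocks, 24236588 to 24236769, 24236960 to 24237131 and 24237265 to 24237375, with gaps of 190 and 133 bases. From the first to the last cluster the bound stretch was 788 bases long.

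The mean log2 fold of the MIF blocks had the same order in both replicates, lowest at the 5′ end. Block 1, at the 5′ end, had 3.77 in replicate 1 and 4.23 in replicate 2 (4.0 ± 0.32, SD, n = 2). Block 2 had 4.85 and 5.43 (5.14 ± 0.41), and block 3 had 5.21 and 5.72 (5.46 ± 0.36). Block 3 was 1.44 and 1.49 log2 units above block 1 (1.47 ± 0.04), which is 2.76-fold. That step varied less between replicates than the level did: replicate 2 was higher at each of the 21 replicate 1 clusters with a partner in replicate 2, by a median of 0.52. The cluster nearest the 5′ end had 3.52 in replicate 1 and 3.98 in replicate 2, the lowest MIF values, and the one nearest the 3′ end had 5.33 and 5.89. In the series-wide list the lowest of 21 MIF regions, 3.75, was likewise the one nearest the 5′ end, at 24236588 to 24236652, and the highest, 5.61, the one nearest the 3′ end, at 24237331 to 24237375.

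**Figure D2:**
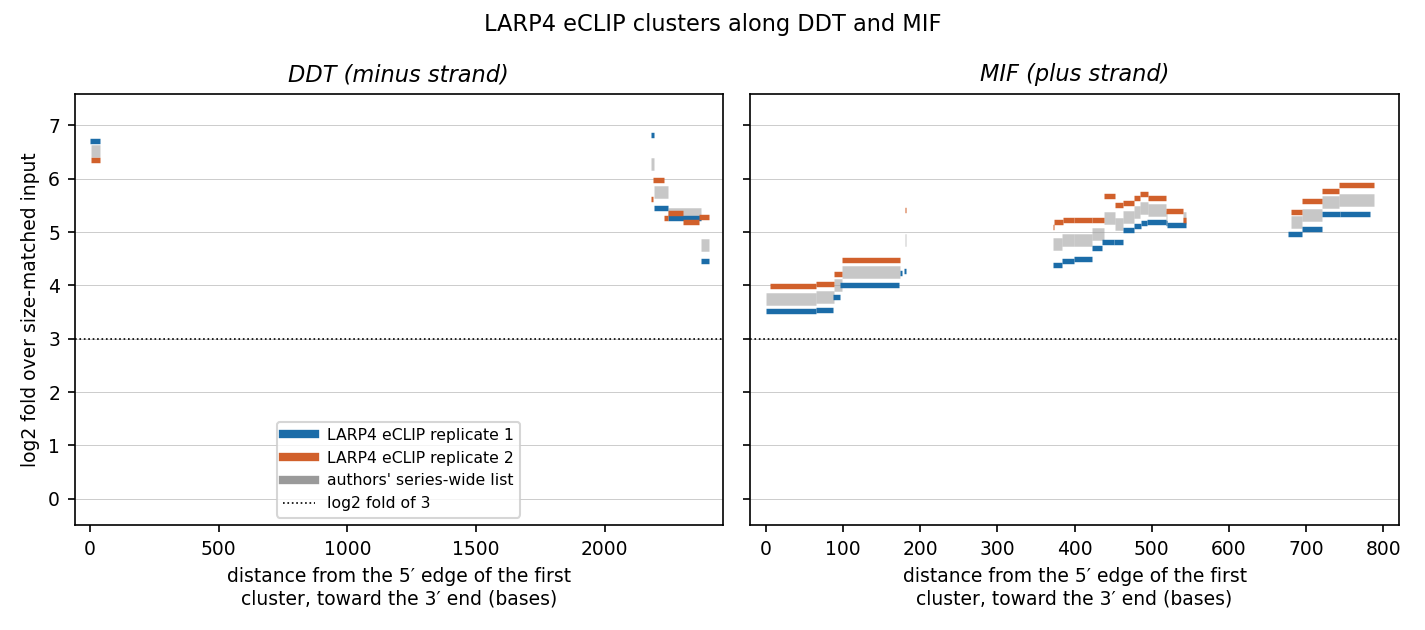
Log2 fold over size-matched input (y axis) of each cluster of DDT (left) and MIF (right) against its distance in bases from the 5′ edge of the first cluster (x axis, scales differ); each bar spans a cluster of replicate 1 (blue), replicate 2 (orange) or a region of the authors' series-wide list (grey), and the dotted line marks a log2 fold of 3. DDT has a lone cluster at the left with 6.71 and 6.35 and a wider group near its 3′ end, while MIF has 3 groups with means of 4.0, 5.14 and 5.46.

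Between these paralogs, DDT had the higher mean fold, but the gap depended on where it was measured. DDT minus MIF was 0.98 log2 units in replicate 1 and 0.49 in replicate 2 (0.74 ± 0.34, SD, n = 2), or 1.67-fold. For the highest cluster it was 1.47 and 0.46. Over the block nearest the 3′ end alone it was 0.08 and −0.30, so there the sign differed between replicates. The step from the first to the last block also differed: the 3′ block of DDT was 1.42 and 0.93 below its 5′ block, whereas that of MIF was 1.44 and 1.49 above. These steps are over unlike stretches. The DDT blocks were 2144 bases apart with no cluster nearer the 5′ end, while the MIF blocks spanned 788 bases in all.

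MZT2B had clusters near both ends of its window, with the highest folds at the 3′ end. Its 16 clusters of replicate 1 and 15 of replicate 2 fell into 4 blocks, at 130939811 to 130940025, 130940200 to 130940212, 130940320 to 130940348 and 130948042 to 130948255. Block 1, at the 5′ end, had mean log2 folds of 4.10 in replicate 1 and 4.19 in replicate 2 (4.15 ± 0.07). Block 2, of 13 bases, had 4.43 and 3.75 (4.09 ± 0.49), and block 3, of 29 bases, had 5.01 and 5.24 (5.12 ± 0.16). Block 4, at the 3′ end, reached 5.41 and 5.90 (5.66 ± 0.35), or 50.4-fold. Block 4 was 1.31 and 1.71 log2 units above block 1 (1.51 ± 0.28). The cluster nearest the 5′ end had 3.85 in replicate 1 and 3.96 in replicate 2, and the one nearest the 3′ end had 5.93 and 5.46.

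The peak of MZT2B lay inside its 3′ block. In replicate 1 the highest cluster was at 130948073 to 130948092, with 6.27, flanked by 5.41 upstream and 5.69 downstream. In replicate 2 it was the next stretch, 130948099 to 130948119, with 7.13, or 140.4-fold, flanked by 6.38 upstream and 6.98 downstream. The highest clusters of the replicates thus lay close together without overlapping, and the lists give no exact summit. At 130948099 to 130948119 the values of replicates 1 and 2 were 5.69 and 7.13, an SD of 1.02. In the series-wide list the highest of 16 MZT2B regions was at this position, with 6.38, and the lowest, 3.59, was the one nearest the 5′ end at 130939811 to 130939827. The −log10 p of MZT2B clusters lay between 25.1 and 81.5 in replicate 1 and between 21.6 and 92.8 in replicate 2, below the limit that every MIF cluster reached.

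MZT2A showed the same arrangement of blocks with less repeatable folds. Its folds were below those of MZT2B in both replicates only in blocks 3 and 4. Its clusters formed 4 blocks present in both replicates, listed from the 5′ end at 132249778 to 132249996, 132249583 to 132249596, 132249449 to 132249479 and 132241564 to 132241791. The gaps between them were 181, 103 and 7657 bases. In MZT2B the gaps were 174, 107 and 7693 bases, and the bound stretch spanned 8445 bases there against 8433 in MZT2A. Block widths were also alike, at 215, 13, 29 and 214 bases in MZT2B against 219, 14, 31 and 228 in MZT2A. The positions of clusters along the copies therefore matched closely, which allowed the folds to be set side by side block by block. Reads that match both copies may have been placed on either, and their part in this match was not tested.

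The replicates disagreed on where MZT2A was most enriched. Block 1, at the 5′ end, had a mean log2 fold of 3.35 in replicate 1 and 4.99 in replicate 2 (4.17 ± 1.16, SD, n = 2). Block 2, of 14 bases, had 2.57 and 5.44 (4.0 ± 2.02), and block 3 had 4.11 and 4.96 (4.54 ± 0.60). At the 3′ end the order turned, with 4.37 in replicate 1 and 3.83 in replicate 2 (4.10 ± 0.39). The 3′ block was therefore 1.02 above the 5′ block in replicate 1 and 1.16 below it in replicate 2, and no 5′ to 3′ trend could be stated for MZT2A. The highest cluster lay in the 3′ block in replicate 1 (132241567 to 132241638, 5.08), which is also the cluster nearest the 3′ end, and in the 5′ block in replicate 2 (132249926 to 132249971, 5.62), where it is the cluster nearest the 5′ end. The replicate 2 cluster nearest the 3′ end had 3.85. The 12 series-wide regions ran from 3.68 at 132241662 to 132241696 to 4.60 at 132241639 to 132241661.

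MZT2A alone of the 4 genes had blocks found in 1 replicate only. There were 7, of which 4 came from replicate 1 and 3 from replicate 2. An enriched one, at 132250153 to 132250194, lay upstream of block 1 with 3.62 in replicate 1, and was the cluster nearest the 5′ end. The other 6 lay in the long gap before the 3′ block and none was enriched. Their log2 folds were −0.02, 0.11 and 2.70 in replicate 1 and 1.18, 2.82 and 2.88 in replicate 2. These weak clusters, with the block 2 cluster of replicate 1 at 2.57, make up all clusters of the 4 genes that were not enriched. The other 3 genes had no such clusters between their blocks.

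**Figure D3:**
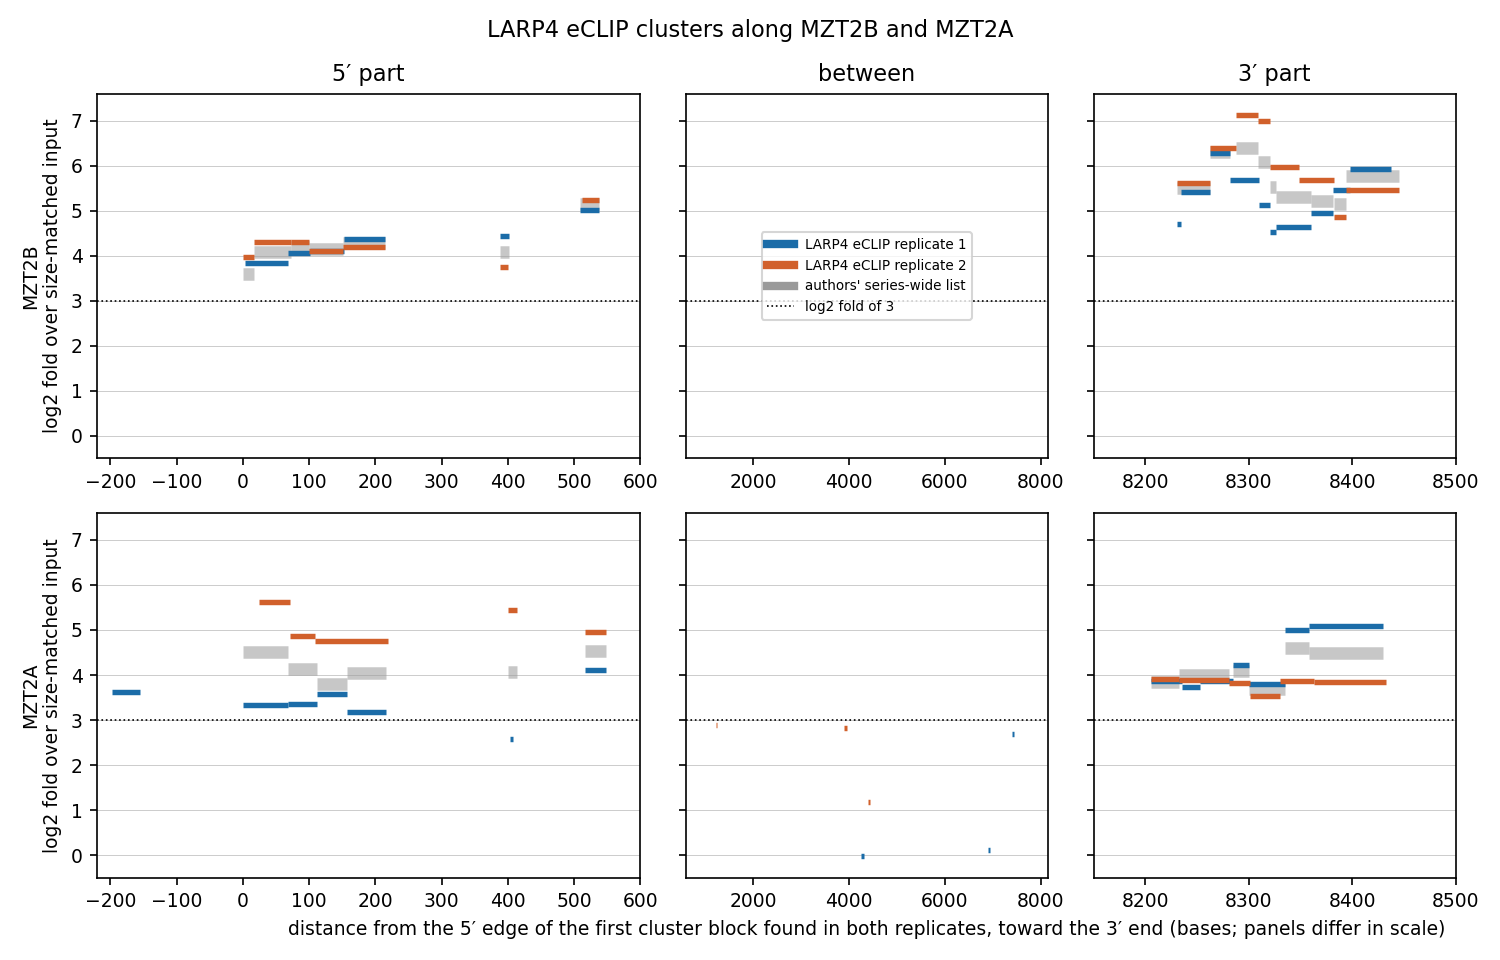
Log2 fold over size-matched input (y axis) of each cluster of MZT2B (top) and MZT2A (bottom) against the distance in bases from the 5′ edge of the first block found in both replicates (x axis, split into 3 panels of different scale); bars span clusters of replicate 1 (blue), replicate 2 (orange) and regions of the authors' series-wide list (grey), and the dotted line marks a log2 fold of 3. Blocks lie at matching distances in both genes, MZT2B reaches 7.13 at its 3′ end, and in MZT2A replicate 2 is above replicate 1 in the 5′ part but not in the 3′ part.

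Between these paralogs, MZT2B was more enriched than MZT2A in the 3′ block in both replicates. MZT2B minus MZT2A there was 1.04 log2 units in replicate 1 and 2.08 in replicate 2 (1.56 ± 0.74, SD, n = 2), or 2.94-fold. In block 3 it was 0.90 and 0.27 (0.59 ± 0.44). In block 1 it was 0.75 and −0.80 (−0.02 ± 1.09) and in block 2 it was 1.86 and −1.69 (0.09 ± 2.51), so at the 5′ end the sign differed between replicates. Over the whole of each gene MZT2B was higher by 1.54 and 1.07 (1.30 ± 0.33), or 2.47-fold. That difference was 0.73 when only the blocks found in both replicates were used, which leaves out the 7 MZT2A blocks found in 1 replicate. Reads that match both copies may be counted in either, and their part in these differences was not tested.

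**Figure D4:**
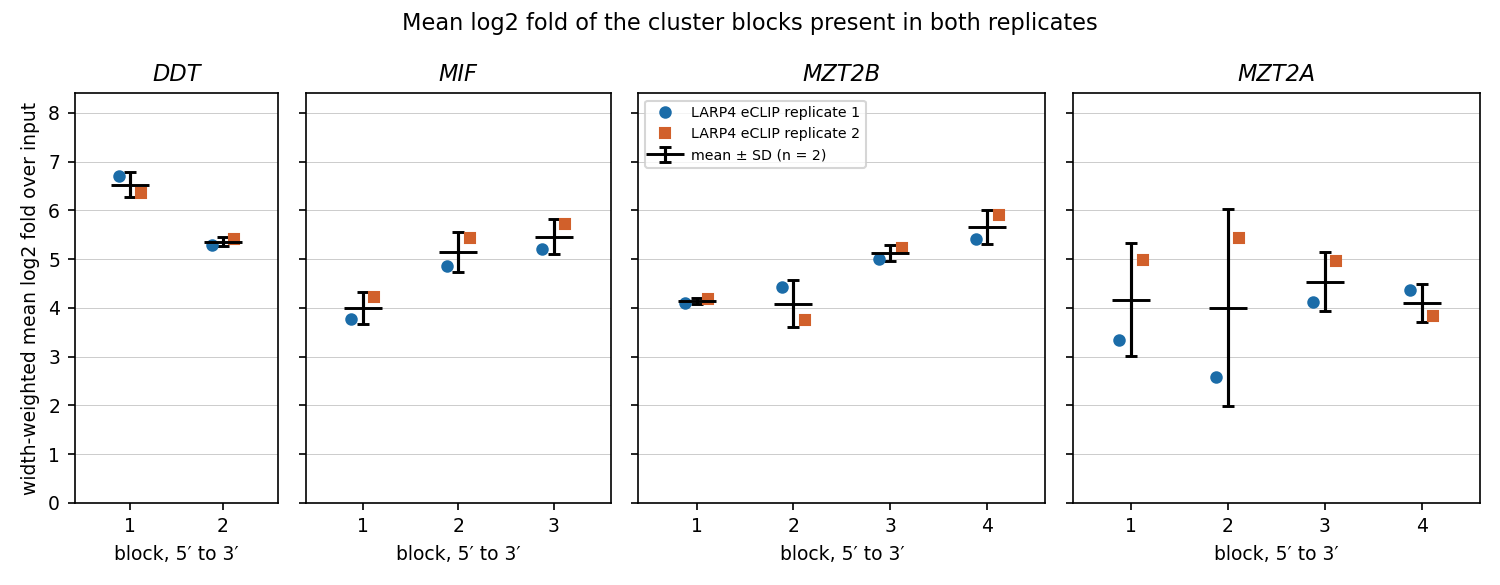
Width-weighted mean log2 fold over size-matched input (y axis) of each cluster block found in both replicates, numbered from the 5′ end (x axis), for DDT, MIF, MZT2B and MZT2A; circles are replicate 1, squares replicate 2, and dashes with bars give the mean ± SD (n = 2). MIF has 4.0 in its 5′ block and 5.46 in its 3′ block, MZT2B has 4.15 and 5.66, DDT is highest at its 5′ block with 6.53, and the wide bars of MZT2A blocks 1 and 2 have SDs of 1.16 and 2.02.

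The replicates mostly overlapped in position, least so in MZT2A. Of the replicate 1 clusters, 5 of 5 in DDT, 21 of 22 in MIF, 16 of 16 in MZT2B and 13 of 17 in MZT2A overlapped a replicate 2 cluster by at least 1 base, and all of these did so over no less than 50% of the shorter cluster. Their edges were rarely identical, in 2 cases in MIF and 1 in MZT2A. Neighbouring clusters within a block touch and share a transcript, so they are not independent measurements, and the blocks or the whole gene carry the comparisons above.

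Clusters lay on the strand of the gene, apart from a few beside DDT that were not enriched. Within 2000 bases of the windows no further cluster lay on the same strand of any of the 4 genes. The opposite strand held none in or within 2000 bases of the MIF, MZT2B and MZT2A windows in either replicate. RefSeq lists MIF-AS1, a long noncoding RNA named as antisense to MIF, across that gene. Opposite DDT there were 6 clusters in each replicate in the window or within 2000 bases of it, with log2 folds from −0.30 to 2.11 in replicate 1 and from 0.01 to 1.42 in replicate 2. None had a −log10 p above 1.75.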

How the data were processed

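Per the labels' protocols, the authors ran their eCLIP pipeline. The submitters' processing notes list cutadapt 1.14, UMI-tools 1.0.0, SAMtools 1.6, STAR 2.7.6a and the build hg19. Not given in the sources used here are the peak caller and its thresholds, the depth scaling, the pairing with inputs and the merging of replicates. The authors deposited, per interval, a −log10 p and a log2 fold over input. The lists have no header, so these meanings were read from the values. The inputs entered only as denominators.

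Starts were converted to 1-based positions. Blocks joined clusters of both replicates separated by under 50 bases. Means were weighted by cluster width, and SDs are over 2 replicates. The labels call the replicates biological. Window selection, means and blocks were tested on simulated data. Genes, windows and blocks were chosen with earlier results of these data known, so no test was run. The rule for named intervals took, for each gene, the highest and lowest series-wide region, the highest cluster of each replicate, the clusters nearest each end, and clusters beside the windows; further clusters were chosen after their values were seen. Alternatives changed thresholds, cluster width, window size, overlap and averaging. RefSeq (GRCh38.p14) gave neighbours, names and upstream sequences (4 of 4 genes matched), and no coordinates were converted. Python 3.11.15, numpy 2.4.6, pandas 2.3.3 and matplotlib 3.10.9 were used.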

Additional observations from a re-analysis of the deposited data

How the results depend on the processing

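Of 82 alternatives over 23 results, 76 kept the value (a count or share within 1.5 times, another value within 1 SD of the replicates), 5 moved it and 1 turned its sign. Folds without 1 replicate are not among these, since with n = 2 each lies within 1 SD of the mean by construction; DDT minus MIF then ran between 0.49 and 0.98 and MZT2B minus MZT2A between 1.07 and 1.54. Some of the 76 could not have moved. Widening the windows by 1000 bases added nothing, as no further cluster lay on the same strand within 2000 bases. The looser fold threshold and the −log10 p filters could not change DDT, MIF or MZT2B. Every cluster of these genes was enriched, with a −log10 p of at least 21.6. DDT minus MIF turned to −0.11 log2 units when only the block nearest the 3′ end was used. MZT2B minus MZT2A was 0.77 with clusters of a −log10 p of at least 3, 0.73 with blocks found in both replicates and 0.94 without the 3′ block, against 1.30. The 0.94 still includes the MZT2A blocks found in 1 replicate only. In the shared blocks 1, 2 and 3 the mean difference was −0.02, 0.09 and 0.59, and in blocks 1 and 2 its sign differed between replicates. The filter on −log10 p also moved the MZT2A mean to 4.11, against 3.58. At a log2 fold of at least 4, MZT2A had 4.5 enriched clusters per replicate, against 12. The alternatives by block were chosen after seeing the data. The contrasts between paralogs are differences taken within each replicate, and no paired test was run on them. Pairing of eCLIP with input could not be varied, because the inputs have no list of their own. Read numbers per cluster are not known, a −log10 p at 400 does not rank clusters, and with 2 replicates an SD is itself poorly known.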

Other observations

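Part of the folds are whole multiples of 1 linear unit. In each replicate that unit was taken from the value nearest 0 among the 10 most common log2 folds, which is a linear fold of 1.08 in replicate 1 and 1.01 in replicate 2. Clusters whose linear fold was a whole multiple of the unit (relative tolerance 1e-06) made up 37.2% and 39.2% of all clusters, and 31.6% and 35.4% of the enriched ones. Among all clusters of DDT they made up 2 of 5 and 3 of 7 clusters, and they included the lone 5′ cluster in both replicates, at 97 and 81 times the linear unit. The highest DDT cluster of replicate 1 stood at 104 times. In MIF they made up 1 of 22 and 0 of 22, in MZT2B 2 of 16 and 3 of 15, and in MZT2A 4 of 17 and 7 of 14. In blocks 1 to 3 of MZT2A they stood at 49, 27, 43 and 31 times the unit in replicate 2. They included the highest MZT2A cluster of replicate 2, at 49 times. In replicate 1 they stood at 11 and 16 times in these blocks, where replicate 2 had the higher means. The reads behind these ratios were not analysed here. Whether such multiples bear on the order of the genes, the step between the DDT blocks or the MZT2A disagreement was not tested.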
